A study of Mus musculus with 12 samples.

Results

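The amino acid transporters described here are 10 genes whose products carry amino acids across the plasma membrane: Slc7a1, Slc7a2, Slc7a5, Slc3a2, Slc38a2, Slc38a3, Slc38a4, Slc1a2, Slc1a4 and Slc1a5. They were chosen by name, as were the gene lists used below, with earlier results of these data known. Counts of members or list genes called are therefore not independent of these data. All 10 members are among the 32285 genes of the deposited matrices and passed the filter of at least 10 counts in every comparison below. The data are single-nucleus RNA sequencing of 8 male mice of 10 to 12 weeks, given as C57BL/6NTac in the methods and as C57BL6J in the labels. No genetic modification is named. All were sedated with avertin, and each mouse gave 3 samples: a liver biopsy (Liver, L), the cells of the same liver directly after isolation (Cell Suspension, CS) and hepatocytes kept for 24 hours on collagen (Primary Hepatocytes, PH). The biopsy was cut after blood had been flushed out with buffer, the cells were then freed with collagenase, and only the cultured ones were kept in medium with dexamethasone and insulin and detached with trypsin, so that the effects of culture, these additions and trypsin cannot be told apart. The 24 samples were tagged with hashtag antibodies and mixed in 6 pools of 4.

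Hepatocytes take up amino acids from portal blood to make urea, glucose and plasma proteins, and different carriers serve different amino acids. The cationic carriers of the Slc7 family bring in arginine, lysine and ornithine, the sodium-coupled Slc38 carriers move alanine, glutamine and other small neutral amino acids, and the Slc1 family holds both glutamate carriers and exchangers of neutral amino acids. Slc7a5 works only as a partner of the Slc3a2 heavy chain, with which it exchanges leucine and other large neutral amino acids. Uptake and use of amino acids differ along the liver lobule: urea is made mainly around the portal vein, whereas the hepatocytes next to the central vein take up glutamate and make glutamine. When amino acids are scarce, the transcription factor ATF4 raises transporters and enzymes of amino acid synthesis through a composite DNA element in their promoters.

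RefSeq promoter windows, which reach from 250 bases before to 50 bases after a gene's start on the GRCm38.p6 build, were matched by symbol for 6 of the 10 transporters, and Slc7a2, Slc7a5, Slc38a3 and Slc1a5 had no entry. The windows of the 2 transporters with the highest fold rise in culture are shown here, that of Slc7a1 at chr5:148399855-148400154 and that of Slc1a4 at chr11:20332664-20332963, both on the minus strand and written 5′ to 3′. Capitals mark a match to TGATGNAA, the core of the ATF4 composite element, searched on both strands with N as any base.
Slc7a1 promoter: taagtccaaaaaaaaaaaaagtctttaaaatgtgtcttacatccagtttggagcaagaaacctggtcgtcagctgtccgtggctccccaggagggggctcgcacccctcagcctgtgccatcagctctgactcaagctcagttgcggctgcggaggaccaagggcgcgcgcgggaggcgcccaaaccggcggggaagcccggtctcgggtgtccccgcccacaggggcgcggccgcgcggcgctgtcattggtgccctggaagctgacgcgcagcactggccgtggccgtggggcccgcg
Slc1a4 promoter: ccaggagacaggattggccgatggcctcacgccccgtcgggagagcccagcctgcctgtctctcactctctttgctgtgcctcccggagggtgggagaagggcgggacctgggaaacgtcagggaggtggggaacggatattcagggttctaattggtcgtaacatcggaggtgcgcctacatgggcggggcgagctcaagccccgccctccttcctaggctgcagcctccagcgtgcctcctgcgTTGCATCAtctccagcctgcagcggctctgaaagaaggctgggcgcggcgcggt
The letters occurred in 1304 of 32851 windows, which is 3.97% of them, and in a window of 1219 of 27025 symbols. Some genes have several windows: Slc7a1 has a second one, not shown, and its window shown here is the one at the annotated end of the gene from which it is transcribed. Among the 6 transporters with a window, Slc1a4 alone held a match in any of them, at position -4 from its start. Of 12 ATF4 target and pathway genes, described with the other genes of amino acid handling below, 4 held a match, and so did Slc7a11, the cystine carrier, whose window holds 2 matches, of which the first is shown. The matched stretches of these genes, again with the match in capitals, are shown because they can be set beside that of Slc1a4. A match is a description of the letters and not a measured binding site.
Slc1a4: gcctcctgcgTTGCATCAtctccagcct
Slc7a11: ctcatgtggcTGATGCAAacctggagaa
Asns: cccagccacaTGATGAAActtcccgcac
Chac1: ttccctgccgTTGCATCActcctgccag
Trib3: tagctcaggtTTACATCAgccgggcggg
Nupr1: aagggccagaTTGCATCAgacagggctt

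The annotated table of nuclei holds 53467 nuclei, of which 15166 from Liver, 13339 from isolated cells (CS) and 16283 from culture (PH) were counted as hepatocytes. In culture this class is one by default: the authors' 7 clusters named only as cultured were taken as endothelial or stellate where those markers led among cultured clusters, and otherwise as hepatocytes. In clusters 0 and 14, which hold 7643 of the 16283 nuclei so counted, the hepatocyte list was not the highest relative to the other cultured clusters (biliary in cluster 0, Kupffer in cluster 14), and the 8 hepatocyte markers added up to 3408 and 2924 CPM, against 3160 CPM in the cultured endothelial cluster and 4359 to 8167 CPM in the other 3. The 8167 CPM are those of cluster 8, whose nuclei held 1608 UMIs at the median. All 6 marker lists were higher there than in the other cultured clusters, so its level does not single out hepatocytes. Of its 2321 nuclei 1450 were from Primary Hepatocytes, and the rest were counted as hepatocytes of the other sample types. The other 5 lists added up to no more than 327 CPM each in clusters 0 and 14, so that these nuclei are counted as hepatocytes here by that default. The paper re-clustered the cultured cells and named their dominant population dedifferentiated hepatocytes from marker genes. Its new clusters were not matched to these here. Without both clusters, an alternative chosen after seeing the data, all members called between sample types kept direction and threshold, and Slc1a5 passed as well between Primary Hepatocytes and Liver. UMIs, which count captured RNA molecules, were summed per sample and cell type over spliced, unspliced and ambiguous RNA. The hepatocyte sums hold between 2104087 and 29023569 UMIs per sample. Levels are given as CPM, the gene's UMIs divided by all UMIs of the sum and brought to a common total, scaled by the TMM factors of edgeR unless stated otherwise, and serve to compare 1 gene between samples, not genes with each other, since they are not per length. Only pools 2 and 5 hold both Liver and Primary Hepatocytes, so these types are compared largely between pools. In the hepatocyte sums the 8 hepatocyte markers added up to between 9517 and 14356 CPM in Liver and between 2149 and 6349 CPM in Primary Hepatocytes. The summed stellate markers were at 23.9 to 53.8 CPM in Liver and 59.6 to 632 CPM in Primary Hepatocytes, the summed endothelial markers at 31.6 to 50.4 and 81.7 to 149 CPM and the summed leukocyte markers at 12.1 to 30.7 and 31.7 to 51.6 CPM, while those of Kupffer and biliary cells overlapped between these types. No marker was at 0 in all samples of a type. The part of these other cells in the differences below was not tested. Of the nuclei, 676 share a barcode with a nucleus of another pool.

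To ask how culture bears on amino acid carriers, hepatocyte nuclei of Primary Hepatocytes were compared with those of Liver. The carriers moved in opposite directions. Slc7a1, Slc1a4, Slc3a2 and Slc7a5 rose by 16.8, 8.83, 3.39 and 3.10-fold, whereas Slc1a2, Slc38a3, Slc38a4 and Slc7a2 fell 29.8, 28.5, 8.30 and 6.28-fold, and Slc38a2 was 1.43-fold lower, a direction that turned with total UMIs alone. Thus 4 members rose, 5 fell and 1, Slc1a5, did not pass the edgeR quasi-likelihood test at an adjusted p of 0.05, where 53.7% of all 26778 genes tested passed it, 27.4% as higher and 26.3% as lower. The count of 9 members called is to be read against that background, while the sizes are those of single genes: the median log2 fold change was -0.34 over the 10 members and 0.10 over all genes. In 8 of the 10 members the 8 Liver and the 8 Primary Hepatocytes samples did not overlap, 4 of them higher and 4 lower in culture, where 30.3% of all genes tested did not overlap either (14.1% higher, 16.2% lower).

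Isolation alone was compared as Cell Suspension against Liver, and here fewer carriers differed. Slc38a2 rose 2.32-fold, Slc7a1 1.75-fold and Slc38a3 1.40-fold, while Slc1a2 fell 1.75-fold. The other 6 members did not pass the test, with log2 fold changes between -0.27 and 0.32. Over all genes 22.3% passed, 8.15% as higher and 14.2% as lower. Primary Hepatocytes against Cell Suspension called the same 9 members in the same directions as Primary Hepatocytes against Liver, with 50.4% of all genes called, 26.9% as higher and 23.5% as lower. The 3 comparisons share samples, so their values are given side by side and are not independent of each other. How the calls over all genes split into higher and lower depended on the scaling: 51.0% of the called genes were higher in Primary Hepatocytes than in Liver with TMM factors and 75.7% with total UMIs alone, and 36.5% were higher in Cell Suspension than in Liver with TMM factors, 47.8% with RLE factors, 49.3% in DESeq2 and 19.9% with total UMIs alone. Between Primary Hepatocytes and Cell Suspension the share was 53.4% with TMM factors and 80.2% with total UMIs alone. Total UMIs alone moved the median over all genes of that change between Primary Hepatocytes and Liver from 0.10 to 0.66 (log2).

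**Figure D1:**
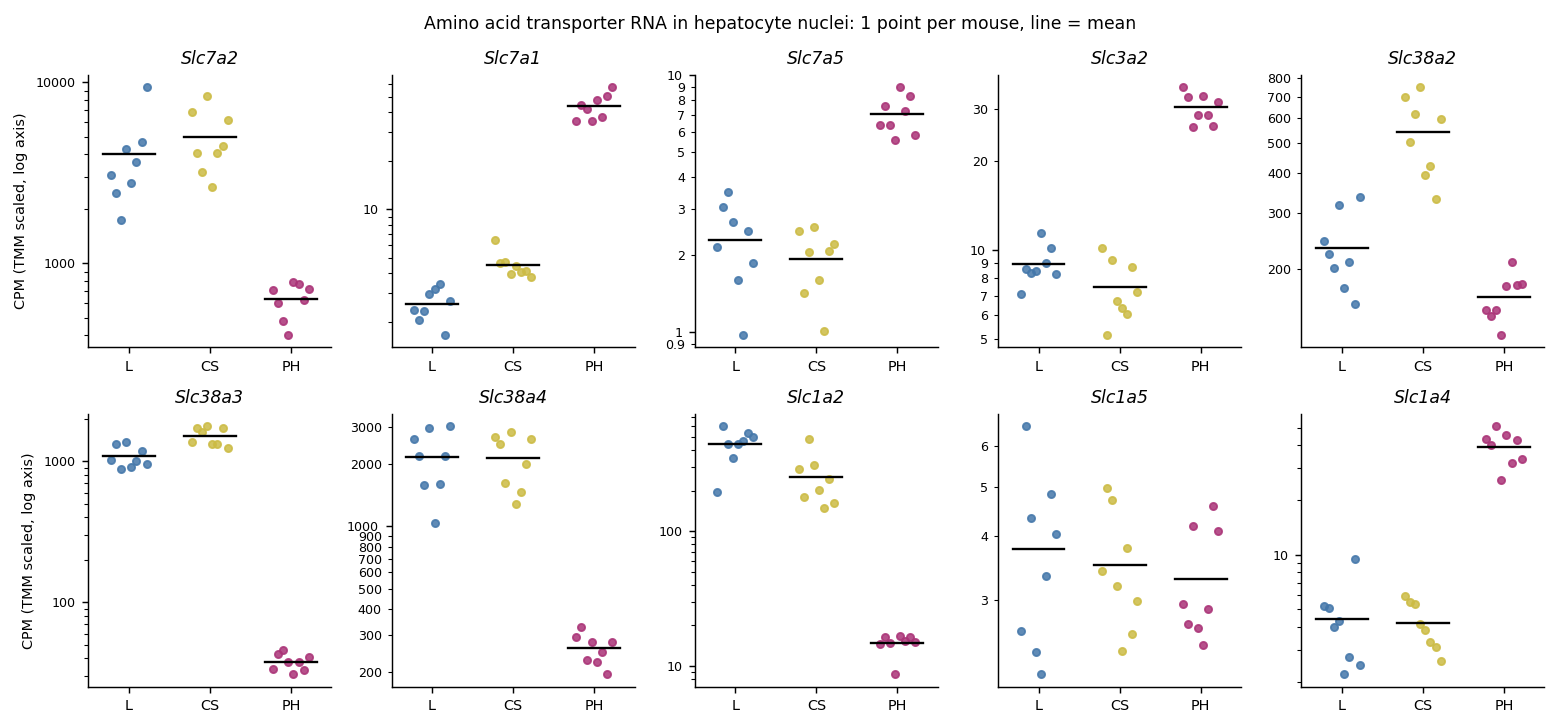
TMM-scaled CPM of each transporter in hepatocyte nuclei (y axis, log scale) in Liver (L), Cell Suspension (CS) and Primary Hepatocytes (PH), with 1 point per mouse and the mean of 8 as a line. The Primary Hepatocytes points of Slc7a1, Slc7a5, Slc3a2 and Slc1a4 lie above all Liver points, those of Slc7a2, Slc38a3, Slc38a4 and Slc1a2 lie below all of them, and those of Slc38a2 and Slc1a5 overlap with Liver.

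**Figure D2:**
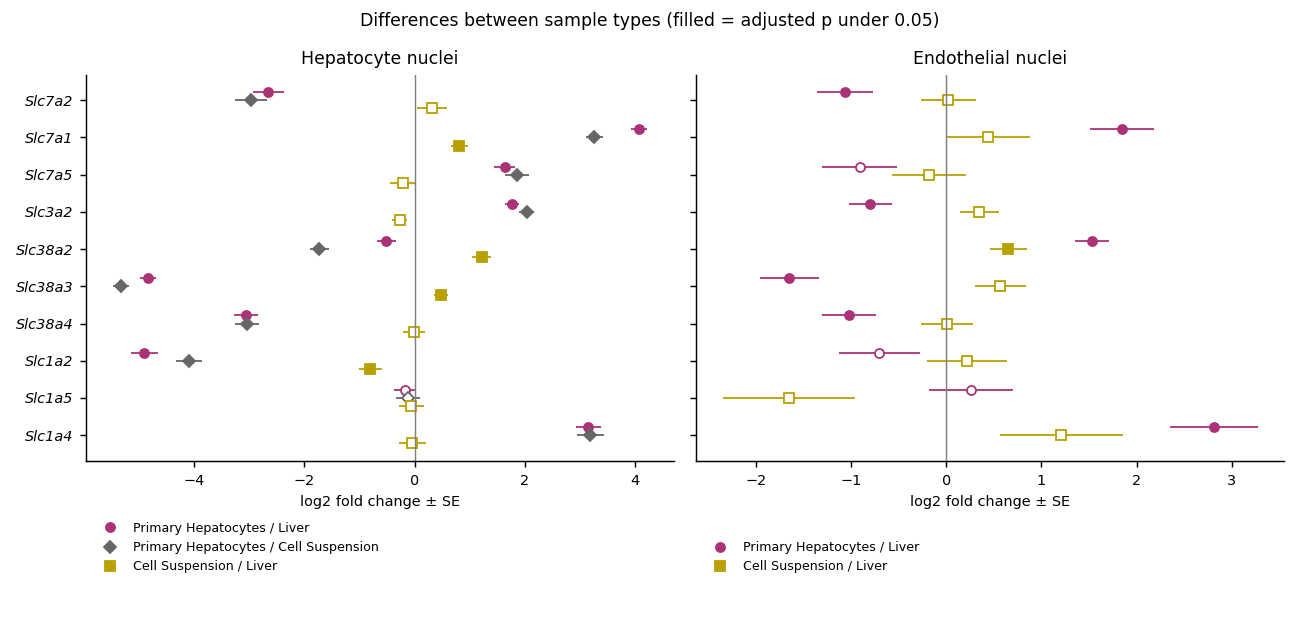
Log2 fold changes with their standard errors (x axis) of the 10 transporters in hepatocyte nuclei (left) and endothelial nuclei (right) for each pair of sample types named in the legend, with filled symbols for an adjusted p under 0.05. In hepatocytes Slc7a1 is at 4.07 and Slc1a2 at -4.90 between Primary Hepatocytes and Liver.

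Of the cationic carriers, the one typical of liver fell in culture and the broadly expressed one rose. Slc7a2, which encodes the low-affinity carrier of arginine, lysine and ornithine typical of liver (chr8:40862396-40922308, plus strand of GRCm38), was at 1725, 3348 and 9431 CPM in Liver (lowest, median and highest of 8 samples), at 2655, 4249.8 and 8368 CPM in Cell Suspension and at 401, 668 and 784 CPM in Primary Hepatocytes. Each cultured sample was below each sample of the other types, and the fall from Liver was 2.65 on the log2 scale (SE 0.28, adjusted p = 1.59e-09 in edgeR). Cell Suspension and Liver overlapped over most of their range (log2 fold change 0.32, SE 0.26, adjusted p = 0.449).
Slc7a1, the broadly expressed high-affinity carrier of the same amino acids (chr5:148327410-148399904, minus strand), was at 1.65, 2.53 and 3.41 CPM in Liver, with 14 to 74 UMIs behind each sample. It was at 3.79, 4.30 and 6.43 CPM in Cell Suspension and at 35.2, 43.3 and 57.5 CPM in Primary Hepatocytes. No sample type overlapped with another, and the level rose from Liver to Cell Suspension in 8 of 8 mice (log2 fold change 0.81, SE 0.16, adjusted p = 0.000260) and from Liver to Primary Hepatocytes in 8 of 8 mice (4.07, SE 0.15, adjusted p = 7.39e-20). The rise with isolation was not past the threshold with spliced UMIs alone (0.38, adjusted p = 0.634).

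Both chains of the leucine exchanger rose in culture and neither passed the test after isolation. Slc7a5, the light chain that carries the amino acids (chr8:121881150-121907694, minus strand), was at 0.973, 2.31 and 3.49 CPM in Liver, at 1.01, 2.05 and 2.57 CPM in Cell Suspension and at 5.56, 6.80 and 8.97 CPM in Primary Hepatocytes. The cultured samples were all above the others, by 1.63 on the log2 scale against Liver (SE 0.19, adjusted p = 1.27e-08). Cell Suspension samples hold only 4 to 33 UMIs of this gene, and their difference from Liver was -0.22 (SE 0.23, adjusted p = 0.559).
Slc3a2, the heavy chain that brings Slc7a5 and other light chains to the cell surface (chr19:8706882-8723369, minus strand), was at 7.07, 8.53 and 11.4 CPM in Liver, at 5.15, 6.94 and 10.2 CPM in Cell Suspension and at 26.1, 30.1 and 35.5 CPM in Primary Hepatocytes. Cultured samples again stood above the rest, by 1.76 against Liver (SE 0.12, adjusted p = 1.83e-13). In Cell Suspension it was at -0.27 against Liver (SE 0.13, adjusted p = 0.153), lower in 6 of 8 mice, and this difference passed the threshold without mouse 1 (-0.40, adjusted p = 0.0289), with unspliced UMIs alone (-0.41), with sums thinned to the smallest one (-0.69) and with total UMIs alone (-0.40).

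The 3 sodium-coupled neutral carriers followed different courses. Slc38a2, a carrier of alanine and other small neutral amino acids that cells raise on amino acid shortage (chr15:96687392-96699730, minus strand), was at 155, 217 and 337 CPM in Liver, at 332, 549 and 751 CPM in Cell Suspension and at 123, 162 and 210 CPM in Primary Hepatocytes. It was thus highest directly after isolation, where only the lowest sample reached into the range of Liver, higher than in the liver of the same mouse in 8 of 8 mice (log2 fold change 1.21, SE 0.17, adjusted p = 3.26e-06), and lower again in culture in 8 of 8 mice, when it dropped by 1.73 on the log2 scale (SE 0.17, adjusted p = 6.77e-10).
Cultured and Liver samples of Slc38a2 overlapped, with the cultured one lower in 6 of 8 mice (log2 fold change -0.51, SE 0.17, adjusted p = 0.0112). That call ended within pools 2 and 5 (-0.75, adjusted p = 0.111), without mouse 4 (-0.33, adjusted p = 0.117), with spliced UMIs alone (-0.04, adjusted p = 0.882), in thinned sums (-0.38, adjusted p = 0.0614) and in all nuclei (-0.18, adjusted p = 0.418). With total UMIs alone its direction turned (0.03), although relative to the median of all genes it was at -0.61 with TMM factors and -0.63 with total UMIs.

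Slc38a3, the sodium-coupled glutamine and histidine carrier (chr9:107650634-107669530, minus strand), was at 884, 1017 and 1383 CPM in Liver, at 1249.7, 1503 and 1775 CPM in Cell Suspension and at 30.8, 38.0 and 46.0 CPM in Primary Hepatocytes. The 24 values fell into a high range for both uncultured types and a low one for culture, with a fall of 4.84 on the log2 scale from Liver (SE 0.15, adjusted p = 3.32e-21). It rose with isolation in 8 of 8 mice (0.48, SE 0.13, adjusted p = 0.00503), a call that ended with total UMIs alone (0.34, adjusted p = 0.0561) and with unspliced UMIs alone (0.38, adjusted p = 0.0609).
Slc38a4, a liver-enriched carrier of small neutral amino acids (chr15:96994820-97055956, minus strand), was at 1033, 2180.3 and 3035 CPM in Liver, at 1279, 2245 and 2838 CPM in Cell Suspension and at 194, 262 and 329 CPM in Primary Hepatocytes. Liver and Cell Suspension covered nearly the same range (-0.02, SE 0.20, adjusted p = 0.970), and the cultured samples were all below them (-3.05 against Liver, SE 0.21, adjusted p = 1.52e-13).

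In the Slc1 family the glutamate carrier fell and 1 of the 2 neutral exchangers rose. Slc1a2, a high-affinity glutamate carrier known from astrocytes and from the hepatocytes around the central vein (chr2:102658659-102790784, plus strand), was at 195, 455 and 599.5 CPM in Liver, at 149, 223 and 482 CPM in Cell Suspension and at 8.68, 15.2 and 16.9 CPM in Primary Hepatocytes. Cultured samples were far below the others (-4.90 against Liver, SE 0.25, adjusted p = 8.60e-17), and the isolated cells were lower than the liver in 6 of 8 mice (-0.80, SE 0.21, adjusted p = 0.00495).
Slc1a4, an exchanger of serine, alanine, cysteine and threonine (chr11:20302180-20332713, minus strand), was at 2.19, 4.15 and 9.46 CPM in Liver, at 2.59, 3.98 and 5.89 CPM in Cell Suspension and at 25.8, 41.5 and 50.9 CPM in Primary Hepatocytes. Uncultured samples overlapped (-0.04, SE 0.24, adjusted p = 0.936) and cultured ones were all higher (3.14 against Liver, SE 0.23, adjusted p = 3.34e-13).
Slc1a5, the related glutamine exchanger (chr7:16781340-16798274, plus strand), was at 2.15, 3.69 and 6.56 CPM in Liver, at 2.39, 3.31 and 4.98 CPM in Cell Suspension and at 2.45, 2.91 and 4.58 CPM in Primary Hepatocytes. All 3 types overlapped, and the difference between culture and Liver was -0.17 (SE 0.20, adjusted p = 0.516). Without clusters 0 and 14 it passed the threshold (-0.53, adjusted p = 0.0318). With total UMIs alone it was 0.60 higher in Primary Hepatocytes than in Cell Suspension on the log2 scale (adjusted p = 0.0264), against -0.11 (adjusted p = 0.710) with TMM factors. Within pools 2 and 5, which leave 2 Liver and 3 Primary Hepatocytes samples, the 8 other members called between these types passed the threshold in the same direction. The share of all genes that passed within these pools is not given here.

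The members differed in the cell types that hold them. In Liver, Slc7a2, Slc38a2, Slc38a3, Slc38a4 and Slc1a2 were lower in each of the other 5 cell types than in hepatocytes, while Slc7a1 was higher in each of them. Shares of all genes called are given below for single cell types, and not for all 5 together. Levels between cell types are given as CPM of the summed UMIs without TMM factors. Slc7a1 averaged 2.33 ± 0.51 CPM in hepatocytes (SD, n = 8), 8.21 ± 4.18 in endothelial cells, 8.01 ± 6.12 in Kupffer cells, 31.3 ± 7.75 in stellate cells, 47.0 ± 21.7 in leukocytes and 66.9 ± 44.3 in biliary cells, where 63 UMIs were counted in all and 1 sample had none. Stellate, leukocyte and biliary samples overlapped with each other, and so did endothelial and Kupffer samples. The log2 fold changes of Slc7a1 against hepatocytes ranged from 1.41 in Kupffer cells (adjusted p = 0.00170) to 4.44 in biliary cells (adjusted p = 5.45e-23, edgeR with the sample as a block).

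Of all 24537 genes tested, 46.4% differed from hepatocytes in endothelial cells (22.8% higher, 23.6% lower), 41.2% in Kupffer cells (17.6% and 23.6%), 39.6% in stellate cells (18.2% and 21.4%), 32.6% in leukocytes (11.3% and 21.4%) and 30.7% in biliary cells (11.9% and 18.9%). This split depends on the scaling: of the genes called, the share that was higher than in hepatocytes went from 42.8% with TMM to 58.5% with RLE factors in Kupffer cells, from 45.9% to 58.7% in stellate cells, from 34.6% to 56.7% in leukocytes and from 38.6% to 63.1% in biliary cells. Slc3a2 had its highest mean in endothelial cells, at 55.2 ± 16.0 CPM against 8.03 ± 0.91 in hepatocytes, and also rose in Kupffer cells (log2 fold change 1.84) and biliary cells (1.34, a call that ended with unspliced UMIs alone at 0.47, adjusted p = 0.612). Slc7a5 was at 12.8 ± 6.74 CPM in endothelial cells and 2.07 ± 0.77 in hepatocytes, so that both chains of the exchanger had their highest mean in endothelial nuclei (log2 fold changes 2.42 for Slc7a5 and 2.56 for Slc3a2). In stellate cells Slc7a5 was lower (-2.01) on 2 UMIs in all, a call that ended with RLE factors (-1.77, adjusted p = 0.0759) and with unspliced UMIs alone (-1.76, adjusted p = 0.0637), and in biliary cells it had none.
Slc1a5 was at 50.8 ± 21.9 CPM in leukocytes and 49.4 ± 28.8 in biliary cells against 3.46 ± 1.51 in hepatocytes, and it also passed the test in stellate cells (1.49) and Kupffer cells (1.32), the former not with unspliced UMIs alone (0.82, adjusted p = 0.167). Slc1a4 was lower in endothelial cells than in hepatocytes (-1.21, adjusted p = 0.00885), on 16 UMIs, and did not pass the test in the 4 other types.

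The values of Slc7a2, Slc38a3 and Slc38a4 in the other 5 cell types of Liver, and those of Slc1a2 in all of them but Kupffer cells, cannot be told apart from free hepatocyte RNA. In Liver endothelial nuclei the 8 hepatocyte markers, which these cells should lack, were at 17.8% to 36.9% of their hepatocyte CPM (median 28.7%). Slc7a2 was at 17.9%, Slc38a3 at 14.7%, Slc38a4 at 14.6% and Slc1a2 at 7.70% there, within or below that range. Slc38a2, at 53.3%, was above it, as it was in stellate (43.6% against 22.6% to 36.2% for the markers), leukocyte (59.5% against 26.3% to 48.0%) and biliary nuclei (60.7% against 10.7% to 32.9%), but not in Kupffer nuclei (28.4%). In Kupffer nuclei Slc1a2 was at 47.1% of its hepatocyte CPM, against 19.7% to 42.3% for the markers.

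**Figure D3:**
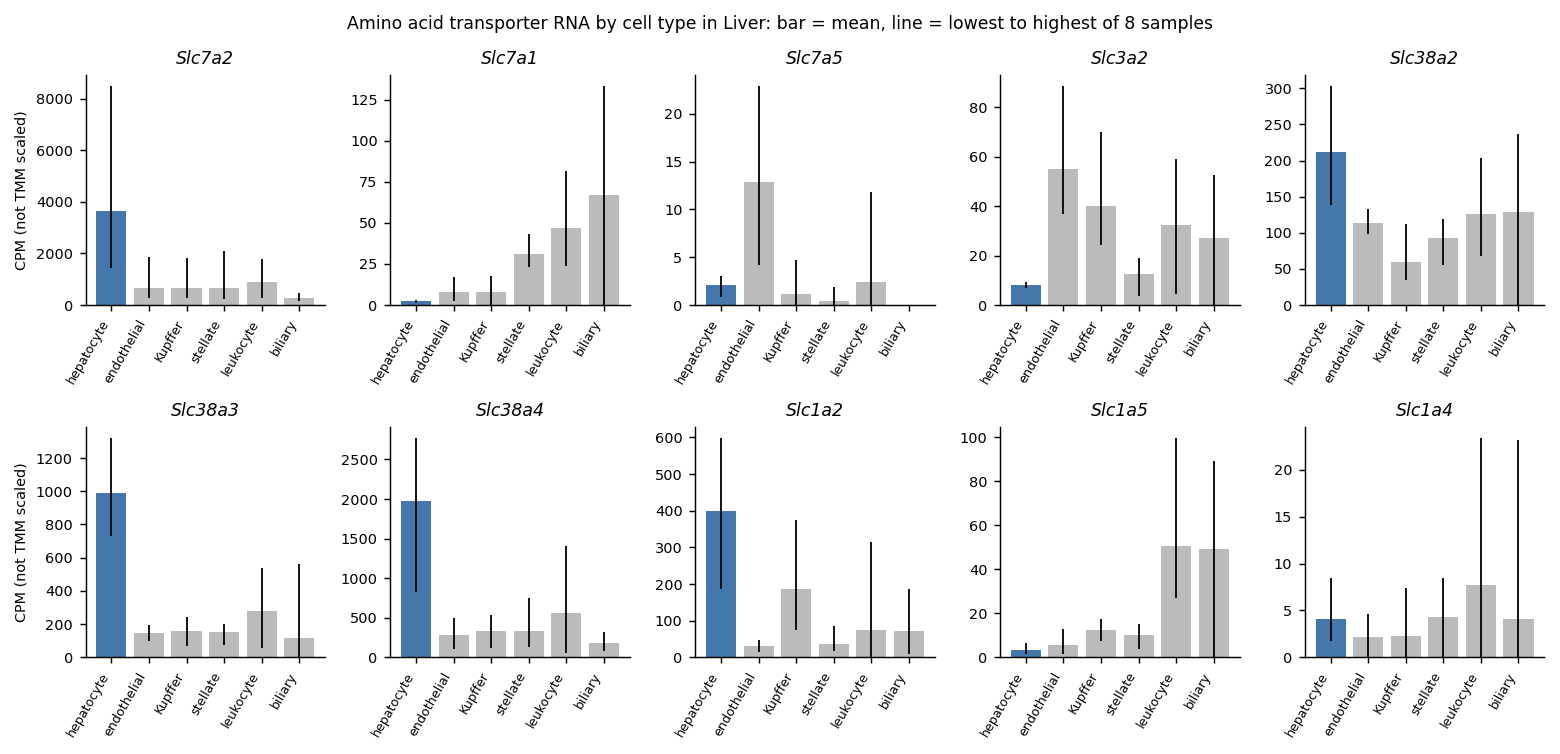
CPM without TMM factors (y axis) of each transporter in 6 cell types of Liver, with the mean of 8 samples as a bar and the lowest to highest sample as a line. Slc7a2, Slc38a2, Slc38a3, Slc38a4 and Slc1a2 are highest in hepatocytes, Slc7a5 and Slc3a2 in endothelial cells, and Slc7a1 and Slc1a5 in leukocytes and biliary cells.

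Endothelial nuclei, of which each of the 24 samples held at least 29, allowed a test of culture outside hepatocytes. Between Primary Hepatocytes and Liver samples 3 members rose there and 4 fell, where 33.8% of 18279 genes were called, 15.4% as higher and 18.4% as lower. Slc38a2 rose in 8 of 8 mice, from 103, 114 and 141 CPM (lowest, median and highest) to 170.1, 348 and 457 CPM (log2 fold change 1.53, SE 0.18, adjusted p = 3.85e-09), and it was the only member called between Cell Suspension and Liver (0.65, adjusted p = 0.0415), where 3.90% of all genes were called, 2.03% as higher and 1.87% as lower. Slc3a2 fell in 8 of 8 mice, from 37.3, 53.6 and 96.0 CPM to 15.2, 32.7 and 53.7 CPM (-0.80, SE 0.22, adjusted p = 0.00444). Slc7a1 (1.85) and Slc1a4 (2.81) were higher in the cultured samples, and Slc7a2 (-1.06), Slc38a3 (-1.65) and Slc38a4 (-1.02) were lower. Some of these calls rest on few UMIs per sample. Slc1a4 had 0 to 6 in Liver and 1 to 15 in Primary Hepatocytes, and Slc7a1 had 3 to 15 and 0 to 21. Slc3a2 had 22 to 229 and 2 to 30, and Slc38a3 had 66 to 288 and 1 to 39.
The hepatocyte markers in cultured endothelial nuclei were at 52.4% to 133% of their level in cultured hepatocyte nuclei. There Slc7a1 was at 47.5% and Slc1a4 at 29.3% of its hepatocyte CPM, below that range, and Slc38a2 at 162% was the only member above it. The levels of all members but Slc38a2 in cultured endothelial nuclei cannot be told apart from hepatocyte RNA. In endothelial nuclei of Cell Suspension Slc38a2 was at 40.6% of its hepatocyte CPM, against 16.5% to 44.7% for the markers. Its endothelial rise with isolation thus cannot be told apart from hepatocyte RNA either. With the pool as a covariate the calls of Slc7a2 (-0.46, adjusted p = 0.397) and Slc38a4 (-0.25, adjusted p = 0.639) with culture and that of Slc38a2 with isolation (0.48, adjusted p = 0.268) ended. Of all genes called in endothelial nuclei 45.6% were higher in Primary Hepatocytes than in Liver with TMM factors and 57.0% with RLE factors, and 52.1% were higher in Cell Suspension than in Liver with TMM factors, 69.0% with RLE factors, 71.1% in DESeq2 and 42.2% with total UMIs alone.

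The difference between the responses of the cell types was tested itself, as an interaction of cell type and sample type. It passed for 8 of the 10 members, against 26.3% of all genes, 14.7% with the higher change in hepatocytes and 11.6% with the lower. The log2 change with culture in hepatocytes exceeded that in endothelial nuclei by 2.37 for Slc7a1, 2.68 for Slc7a5 and 2.70 for Slc3a2, and was below it by the signed differences of -1.50 for Slc7a2, -1.79 for Slc38a2, -2.97 for Slc38a3, -1.85 for Slc38a4 and -3.98 for Slc1a2. Slc3a2 moved in opposite directions in the 2 cell types, and so did Slc38a2, except with total UMIs alone, where it was at 0.03 in hepatocytes and 1.68 in endothelial nuclei. The calls over all genes were 55.9% higher with TMM factors and 69.7% with total UMIs alone. Slc1a4 (0.44, adjusted p = 0.607) and Slc1a5 (-0.34, adjusted p = 0.665) did not pass. The cultured endothelial side of these differences cannot be told apart from hepatocyte RNA for any member but Slc38a2, as given above.

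Along the lobule, Slc1a2 was the carrier with the steepest profile. Hepatocyte nuclei were placed by an index, the share of 10 pericentral genes such as Glul and Cyp2e1 in the UMIs of these and 10 periportal genes such as Ass1 and Cyp2f2, and none of the transporters is part of it. In Liver, Slc1a2 was at 418, 1078 and 1549 CPM (lowest, median and highest of 8 samples, TMM scaled) in the third of nuclei with the highest index and at 3.32, 10.6 and 17.2 CPM in the third with the lowest, higher in 8 of 8 samples by 6.69 on the log2 scale (SE 0.19, adjusted p = 6.10e-20, edgeR with the sample as a block).
Over 6 steps of the index, its mean CPM (not TMM scaled) in Liver was 10.2, 13.7, 24.1, 80.4, 609 and 2984, so most of the rise lay in the last 2 steps. A UMI of Slc1a2 was found in 71.8% of the Liver nuclei of the top step and in 7.77% of those of the bottom step.

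The other 2 Slc1 carriers and Slc7a5 were pericentral as well. In Liver, Slc1a4 was 4.23-fold, Slc1a5 4.03-fold and Slc7a5 3.75-fold higher in the third with the highest index (log2 fold changes 2.08, 2.01 and 1.91). On the periportal side were Slc7a1 (-1.20, SE 0.20, adjusted p = 5.20e-05) and Slc7a2 (-0.96, SE 0.07, adjusted p = 2.42e-11), and, with smaller differences, Slc38a3 (-0.41), Slc38a4 (-0.36) and Slc38a2 (-0.31). Slc3a2 was even along the lobule (0.01, SE 0.10, adjusted p = 0.971). Thus 4 members were higher and 5 lower in the third with the highest index, against 10.7% and 10.0% of all genes (20.7% in either direction). The Slc38a2 call ended with unspliced UMIs alone (-0.26, adjusted p = 0.104).

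In Cell Suspension the same 4 members were higher in the third with the highest index and 2 were lower, where 15.7% of all genes passed, 8.86% as higher and 6.86% as lower. Slc1a2 was at 368, 505 and 933 CPM in the pericentral nuclei and 1.52, 7.59 and 31.7 CPM in the periportal ones (6.17, SE 0.20). Slc1a5 was at 2.26, Slc7a5 at 1.24 and Slc1a4 at 1.04, and Slc7a2 (-0.56) and Slc38a4 (-0.29) were lower. The Slc7a5 call ended with unspliced UMIs alone (1.25, adjusted p = 0.122). Over the 6 steps of the index in Cell Suspension, mean Slc7a5 (not TMM scaled) was 0.884 CPM in the first. It was 3.40 CPM in step 5 and 0.840 CPM in the last, the most pericentral one. All Cell Suspension hepatocyte nuclei held 110 UMIs of Slc7a5. Slc7a1, which did not pass here, was 1.54-fold lower in the third with the highest index, in 8 of 8 samples, and Slc7a2 and Slc38a4 were lower in 7 of 8 each. Whether the sample types differ in these gradients was not tested.
Hepatocyte nuclei with an index over 0.8 made up between 4.98% and 21.0% of the indexed nuclei in Liver (median 11.5%) and between 1.21% and 6.23% in Cell Suspension (median 3.59%). Within them Slc1a2 averaged 2984 ± 1309 CPM in Liver and 2907 ± 762 in Cell Suspension (SD, n = 8, not TMM scaled), while over all hepatocyte nuclei it was lower in Cell Suspension by the values above. The part of the nuclei's position in that difference was not tested. Only 32.5% of the Primary Hepatocytes nuclei held the 5 index UMIs required, against 96.7% in Liver and 93.5% in Cell Suspension, so cultured nuclei were not placed.

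**Figure D4:**
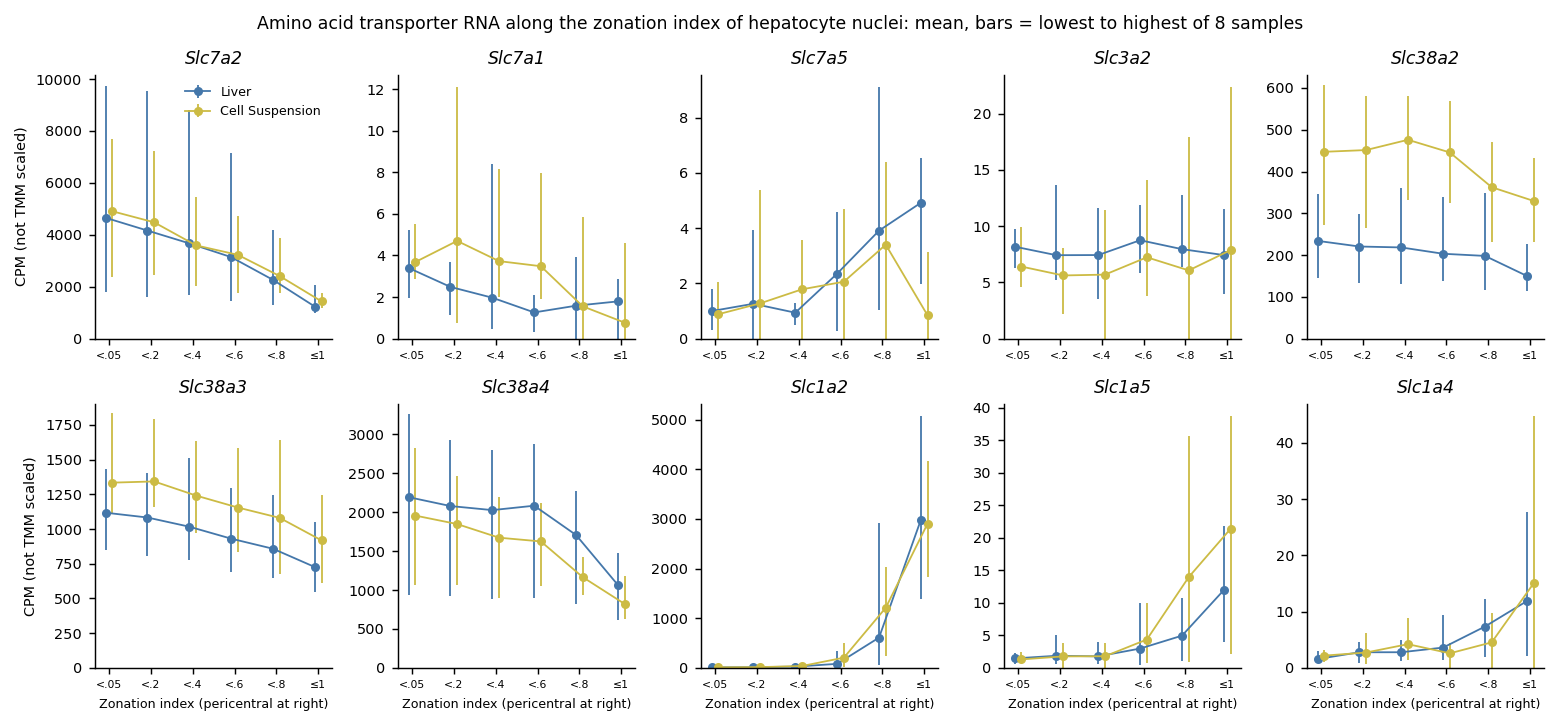
Mean CPM without TMM factors (y axis) of each transporter in hepatocyte nuclei of Liver and Cell Suspension in 6 steps of the zonation index (x axis, pericentral at the right), with bars from the lowest to the highest of 8 samples. Slc1a2 rises to 2984 CPM in Liver in the last step, Slc7a2 declines along the axis in both sample types, and Slc3a2 stays level.

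The splicing state gave a second readout of the same genes. The unspliced share is the percentage of unspliced UMIs among spliced and unspliced ones, and it was computed for samples with at least 20 such UMIs of a gene and compared with exact permutation tests over samples, 8 against 8 at most, whose smallest possible p is 1.55e-04. The test was run on all genes with enough UMIs, and p was adjusted over all genes of a comparison. Over the summed UMIs of all genes the share was 78.5% to 83.8% in Liver samples, 68.3% to 77.5% in those of Cell Suspension and 68.4% to 72.9% in Primary Hepatocytes.
Between Primary Hepatocytes and Liver 6 of the 10 members passed, all with a lower share in culture, where 58.1% of 13318 genes passed, 5.34% with a higher and 52.8% with a lower share, so that the members' count is near that of all genes. The median difference over those genes was -3.87 percentage points. Slc38a2 had the lowest mean share of the members tested in each type, with 45.0% ± 6.39 in Liver, 36.9% ± 5.97 directly after isolation and 25.6% ± 2.43 in culture (SD, n = 8). That rank depends on leaving out ambiguous UMIs. With these counted as unspliced, Slc38a2 was at 69.0% in Liver, 62.2% in Cell Suspension and 49.4% in culture. Slc3a2 was then at 68.1%, 58.3% and 52.3%, so that Slc38a2 was lowest in culture alone. Without ambiguous UMIs the difference of Slc38a2 between culture and Liver was -19.3 percentage points (exact permutation test, adjusted p = 0.000648), that between Cell Suspension and Liver -8.11 points (adjusted p = 0.0411).

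Slc38a3 and Slc3a2 fell by similar amounts between Liver and culture, by 19.6 and 18.4 percentage points. For Slc38a3 the share was 73.7% ± 4.39 in Liver and 54.1% ± 7.42 in Primary Hepatocytes, and for Slc3a2 it was 65.3% ± 2.71 and 46.9% ± 1.81. Of all genes, 3.60% had a difference as low as that of Slc38a2 or lower, 3.42% one as low as that of Slc38a3 and 4.46% one as low as that of Slc3a2. Slc38a4 fell by 9.96, Slc1a2 by 6.51 and Slc7a2 by 5.75 points, and 21.7%, 36.1% and 39.4% of all genes fell by as much or more.
Of the members that rose, Slc1a4 (-1.61 points, adjusted p = 0.430), Slc7a1 (-4.06, adjusted p = 0.110) and Slc7a5 (5.77, adjusted p = 0.0725, exact permutation tests) did not pass. Cell Suspension differed from Liver in 3 of 9 members tested, Slc38a3 (-10.8 points), Slc3a2 (-9.92) and Slc38a2, all lower, against 57.5% of 11355 genes (2.00% higher, 55.5% lower), with a median difference of -5.12 points over all genes. Whether the members differ from other genes in this was not tested. In an exact sign-flip test within mice, chosen after seeing the data and run for genes with at least 6 pairs, 2 of 7 members passed against 52.9% of genes: Slc38a3 (adjusted p = 0.0314) and Slc38a4 (-3.21 points, lower in 7 of 8 mice, adjusted p = 0.0314), which had not passed without the pairing (adjusted p = 0.0537). Slc3a2 (-10.5 points, lower in 6 of 7 mice, adjusted p = 0.0747) and Slc38a2 (lower in 6 of 8, adjusted p = 0.105, exact sign-flip tests) did not pass within mice. Primary Hepatocytes differed from Cell Suspension in 4 of 9, Slc38a2 (-11.2 points), Slc3a2 (-8.44), Slc38a4 (-6.75) and Slc7a2 (-6.02), all lower in culture, against 24.7% of 11183 genes (13.7% higher, 11.0% lower) and a median of 0.283 points. Within mice none of 10154 genes passed in that comparison, these 4 members included. The smallest adjusted p of the exact sign-flip test was 0.0588, which Slc38a2 and Slc7a2 had, both lower in culture in 8 of 8 mice. For Slc3a2 the difference in that comparison was -5.95 points when ambiguous UMIs were counted as unspliced, with an unadjusted p of 0.0591 (exact permutation test). Whether reads were counted by strand is not given in the sources used here, and Slc7a2, Slc7a5 and Slc1a2 each overlap 1 annotated gene on the opposite strand (Gm26584, Gm20388 and Gm13872).

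**Figure D5:**
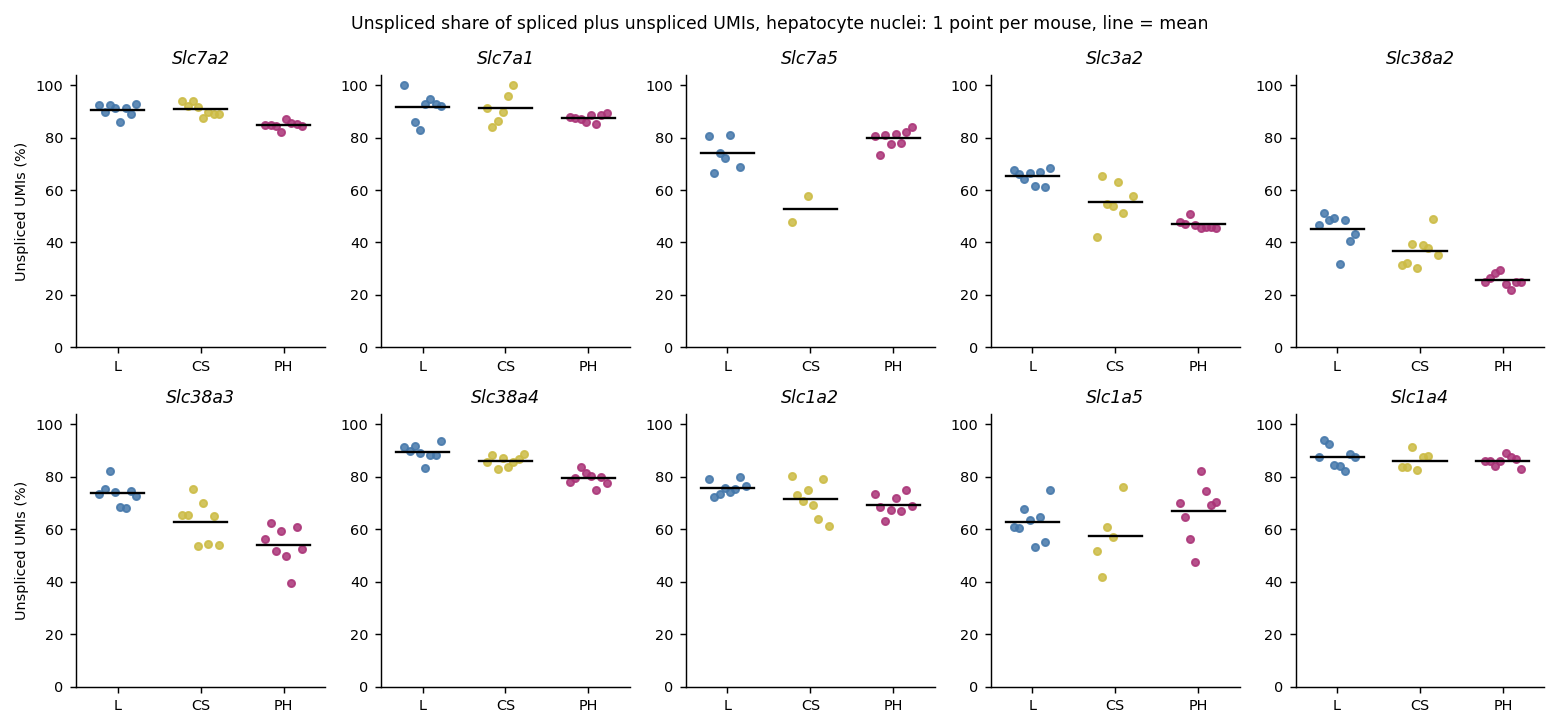
Unspliced share in percent of spliced plus unspliced UMIs (y axis) of each transporter in hepatocyte nuclei of Liver (L), Cell Suspension (CS) and Primary Hepatocytes (PH), with 1 point per mouse with at least 20 UMIs and the mean as a line. Slc38a2 and Slc3a2 decline from Liver through Cell Suspension to culture, and the means of Slc1a4 lie between 86.0% and 87.6%.

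The other genes of amino acid handling, taken from whole lists by function, place the 10 carriers in their surroundings. Each count below is to be read beside the 27.4% of all genes that were higher and the 26.3% that were lower in culture than in Liver, and for Cell Suspension beside 8.15% and 14.2%. Of 21 other plasma membrane carriers, 5 were higher and 5 lower in hepatocyte nuclei of Primary Hepatocytes than in Liver, and the median of their log2 fold changes was -0.000799 against 0.10 over all genes. Slc7a11, which imports cystine for glutathione synthesis, rose from 6.29 ± 1.48 to 70.7 ± 31.6 CPM (log2 fold change 3.50), and Slc7a6, a light chain of the Slc3a2 family that exchanges cationic for neutral amino acids, rose by 3.38. The further 3 were Slc6a20a (1.20), Slc7a3 (0.97) and Slc38a1 (0.61). In Liver, Slc7a6 and Slc7a3 averaged only 0.708 and 0.951 CPM.
Slc6a13, a carrier of GABA and taurine, fell from 212 ± 32.8 to 29.8 ± 5.54 CPM, and Slc43a1 (-2.80), Slc38a5 (-2.16), Slc16a10 (-1.18) and Slc43a2 (-0.84) were lower too. Slc38a5 averaged only 0.110 CPM in Liver and 0.0212 CPM in Primary Hepatocytes, so that its call rests on very few UMIs. Between Cell Suspension and Liver 2 of the 21 rose, Slc6a12 (0.36) and Slc6a13 (0.38). Of 10 mitochondrial carriers 7 fell in culture, with Slc25a15, the ornithine carrier of the urea cycle, at -3.27 (from 179 ± 66.0 to 18.6 ± 4.60 CPM), while Slc25a18 (2.17) and Slc25a29 (0.59) rose. The other 6 that fell were the glutamate carrier Slc25a22 (-1.82), Slc25a44 of branched-chain amino acids (-1.56), the aspartate and glutamate exchangers Slc25a13 (-1.39) and Slc25a12 (-0.73), the serine carrier Sfxn1 (-1.09) and the glycine carrier Slc25a38 (-0.86), and Slc25a22 alone was called between Cell Suspension and Liver (0.73). These are RNA values. For several mitochondrial inner membrane genes the paper reports more protein in cultured hepatocytes than in Liver despite less RNA. Protein of these carriers was not examined here. Of 8 lysosomal carriers 2 rose, Ctns (0.66) and Slc38a7 (0.30), and 4 fell, Slc36a1 (-1.75), Mfsd12 (-0.97), Pqlc2 (-0.92) and Slc38a9 (-0.44), while with isolation Pqlc2 alone was called (-0.38).

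The 12 genes of the amino acid response, Atf4 included, were followed as a group. In cultured nuclei 9 of the 12 rose against Liver, 1 fell and 2 did not pass, and their median log2 fold change was 1.09. Psat1 of serine synthesis rose by 2.82, Asns, which makes asparagine, from 2.52 ± 1.06 to 9.74 ± 1.94 CPM (1.96), Aldh18a1 of proline synthesis by 1.96 and Atf4 itself by 0.83. Nupr1 (1.81), Sesn2 (1.73), Chac1 (1.16), Ddit3 (1.02) and Shmt2 (0.38) also rose, whereas Phgdh, the first enzyme of serine synthesis, was lower (-1.46). Psat1, Aldh18a1 and Nupr1 rose from low levels, averaging 0.831, 0.912 and 0.581 CPM in Liver and 5.91, 3.65 and 2.20 CPM in Primary Hepatocytes. In Cell Suspension 5 were higher and 1 lower than in Liver, with Chac1, a glutathione-degrading enzyme, at 2.29, Phgdh at 1.11, Asns at 0.95, Atf4 at 0.65 and Shmt2 at 0.58, and Mthfd2 at -1.07.
Of 12 genes that report amino acids to the kinase complex mTORC1, 5 were higher in culture and 2 lower, together a share near the 53.7% of all genes. The higher ones were the Rag GTPases Rragd (2.87), Rragb (1.22), Rraga (0.98) and Rragc (0.66) and the anchor Lamtor1 (0.42), and the lower ones were Flcn (-0.71) and Nprl2 (-0.44). Rragd and Rragb averaged only 0.851 and 0.582 CPM in Liver. In Cell Suspension Lamtor1 (-0.44) and Rragc (-0.38) were lower than in Liver.

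Finally, the genes whose level was most like that of each carrier were sought over the 24 hepatocyte sums, among genes of at least 10 CPM on average and by Pearson's r of log2(CPM + 1). The 24 points come from 3 sample types and the same libraries, so the values are given as a description. Slc7a1 was closest to Spon1 (r = 0.994), Rab31 and Iqgap1, and Slc1a4 to Gm33699 (0.977), Dnal1 and Tpm1. Slc3a2 was closest to Rps15a (0.979), Plekhj1 and Rsu1. Slc38a2, with its peak after isolation, was closest to Pim3 (0.929), Jak1 and Bhlhe40. Slc38a3 was closest to Entpd8 (0.996), Aldh1l1 and Sema4g, and Slc38a4 to Slc25a15 (0.991), Pdzk1 and Chn2. Slc1a2 was closest to Lclat1 (0.984), Gm33037 and Bckdhb, and Slc7a2 to Osbpl8 (0.967), 0610040J01Rik and 1700112D23Rik. Slc7a5 and Slc1a5 were below the minimum level.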

How the data were processed

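Nuclei were sorted, tagged with hashtag antibodies and sequenced from the 3′ end on the 10x platform. Per the submitters' processing notes and the study's methods, the authors used bcl2fastq 2.19.0, Salmon alevin 1.9.0 and alevin-fry 0.7.0 with spliced and unspliced GRCm38 transcripts, removed negatives and doublets and clustered the nuclei. The deposited matrices hold UMI counts per gene in 3 splicing states, and the deposited table of nuclei gives sample, group and cluster. The 7 clusters named there only as cultured were read here as endothelial or stellate where those markers led, and otherwise, by default, as hepatocyte. Counts were summed over the 3 states per sample and cell type and tested with edgeR 4.0.16 (quasi-likelihood, TMM factors, genes of at least 10 counts, Benjamini-Hochberg adjustment, threshold 0.05), with 1 coefficient per sample type. Sums needed at least 10 nuclei. Unspliced shares were compared with two-sided exact permutation tests, run on all genes with at least 20 UMIs in at least 4 samples of each type and adjusted over the genes of a comparison, an adjustment chosen after seeing the data in place of one over 28 tests of members, which called the same members, and again within mice. The scripts were tested on simulated data. The members and lists were chosen with earlier results of these data known. Genes were named as all 10 members, with those passing in each list and the 3 most similar genes. Alternatives covered RLE factors, total UMIs, DESeq2 1.42.0, other filters, splicing states, thinning, pools and mice left out. The hashtag CD2 was read as sample CS2. Samples with the same number were read as coming from the same mouse. Over 8617 genes the deviations of Liver and Cell Suspension correlated at 0.343 to 0.850 within mice (median 0.674, other mice -0.0846). Those of Liver and Primary Hepatocytes correlated at -0.0515 to 0.131 (0.0368, other mice -0.0160), and those of Cell Suspension and Primary Hepatocytes at -0.170 to 0.129 (0.0166, other mice 0.00546). For cultured samples these values do not show that the number names the mouse. Counts of mice and paired tests with culture rest on that reading.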

Additional observations from a re-analysis of the deposited data

Results flagged for a closer look

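Of 30 groups of 8 hepatocyte samples, 4 held a sample that stood apart from the others by Dixon's criterion, where chance gives about 1 in 20 groups. For Slc7a2 it was Liver sample 8, at 9431 CPM against 1725 to 4673 in the others, and for Slc1a4 it was Liver sample 7, at 9.46 against 2.19 to 5.23 CPM. Slc7a1 stood out in Cell Suspension sample 1, at 6.43 against 3.79 to 4.71 CPM, and Slc1a2 in Primary Hepatocytes sample 4, at 8.68 against 14.6 to 16.9 CPM.

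For 8 members the log2 change with culture differed between hepatocyte and endothelial nuclei in the interaction test, which 26.3% of all genes passed. The cultured endothelial side cannot be told apart from hepatocyte RNA for any of them but Slc38a2. The hepatocyte change minus the endothelial one was 2.37 for Slc7a1, 2.68 for Slc7a5, 2.70 for Slc3a2, -1.50 for Slc7a2, -1.79 for Slc38a2, -2.97 for Slc38a3, -1.85 for Slc38a4 and -3.98 for Slc1a2.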

How the results depend on the processing

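Of 808 values recomputed for members called in a comparison, 787 kept direction and side of the threshold, 20 lost the threshold and 1 changed sign. The unspliced shares tested within mice between Primary Hepatocytes and Cell Suspension, where no gene passed, are not among these values. Of 361 values of members not called, 302 stayed so, 13 passed the threshold and 46 changed sign. The cause was not tested for any of them. Low counts limit Slc7a5, Slc1a5, Slc1a4 and Slc7a1 in uncultured hepatocyte nuclei, down to 4 UMIs per sample. In endothelial nuclei they also limit members that were called, down to 0 UMIs per sample for Slc7a1 and Slc1a4. Leaving out cluster 8 or clusters 0 and 14, total UMIs alone, RLE factors in the interaction test and adjusting unspliced shares over all genes or testing them within mice were chosen after seeing the data.

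With the mouse as replicate block, 9 members were called between Primary Hepatocytes and Liver, 4 between Cell Suspension and Liver and 9 between Primary Hepatocytes and Cell Suspension, and 7 and 1 in endothelial nuclei, and the pairing changed no call in these fits. For the unspliced shares against Liver, the 9 calls lost Slc3a2 and Slc38a2 after isolation. Slc38a4, which had not been among them, was gained there, which gave 8 calls. Between Primary Hepatocytes and Cell Suspension the paired test called no gene, so that all calls of members were lost. In the edgeR fit with the mouse block, the level of Slc38a2 was at -0.45 between Primary Hepatocytes and Liver (adjusted p = 0.0163). With the pool as covariate 2 members were called between Cell Suspension and Liver in endothelial nuclei, Slc38a3 (0.82) and Slc1a2 (1.20), in place of 1. Leaving out 1 mouse gave 8 to 9, 4 to 5 and 9 to 9 calls in the 3 hepatocyte comparisons. The main fits called 53.7%, 22.3% and 50.4% of all genes in these comparisons. In endothelial nuclei they called 33.8% with culture and 3.90% with isolation. Shares of all genes called in the other fits are not given here, so these counts of members cannot be read alone.

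The 1 called value that changed sign was Slc38a2 between Primary Hepatocytes and Liver with total UMIs alone (0.0333). Slc1a5 in that comparison was at 0.0750 with unspliced UMIs alone, 0.17 with the pool as covariate, 0.64 within pools 2 and 5 and 0.39 with total UMIs alone. Between Cell Suspension and Liver, Slc38a4 was at 0.0575 with RLE factors and in DESeq2, at 0.0570 with filterByExpr, at 0.0425 with spliced and 0.0689 with unspliced UMIs, at 0.0523 thinned, at 0.0081 in nuclei of at least 1000 UMIs, at 0.0149 without cluster 8 and at 0.11 in all nuclei. Slc1a5 was at 0.0225 with RLE factors, 0.0210 in DESeq2, 0.0231 with filterByExpr, 0.19 with the pool and 0.0136 with the mouse block. Slc1a4 was at 0.0368 with RLE factors, 0.0394 with filterByExpr, 0.0283 in DESeq2, 0.0740 with unspliced UMIs, 0.0621 with the mouse block and 0.12 in all nuclei. Slc7a2 was at -0.12 and Slc7a5 at 0.0484 with spliced UMIs, and Slc7a5 at 0.22 thinned. Without 1 mouse each, these ranged from -0.0491 to 0.0224 for Slc38a4, -0.11 to 0.0408 for Slc1a5 and -0.13 to 0.26 for Slc1a4, and Slc1a5 between Primary Hepatocytes and Cell Suspension from -0.22 to 0.0051, being 0.17 with unspliced UMIs and 0.60 with total UMIs alone. In endothelial nuclei with the pool Slc1a2 was at 0.85 with culture and Slc7a5 at 0.10 with isolation, and Slc38a4 at -0.0237 with isolation and total UMIs alone. Against hepatocytes with RLE factors Slc1a4 was at 0.0136 in biliary cells, 0.28 in leukocytes and 0.24 in stellate cells, and Slc7a5 at 0.12 in leukocytes, where it was at 0.11 with unspliced UMIs. Along the lobule Slc3a2 in Liver was at -0.0404 when fewer nuclei at each end of the index were compared and at -0.0096 with unspliced UMIs, and Slc38a2 in Cell Suspension at -0.0083 with fewer nuclei at each end. The unspliced share of Slc7a1 was 0.85 points higher in Cell Suspension than in Liver in nuclei of at least 1000 UMIs.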
